A study of Drosophila melanogaster with 4 samples.

Results

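The achaete-scute complex is a group of 4 neighbouring genes near the left end of the Drosophila melanogaster X chromosome: achaete (ac), scute (sc), lethal of scute (l(1)sc) and asense (ase). H3K9ac, the acetylation of lysine 9 of histone H3, was examined there over X:250000-360000 of FlyBase release 5, the window that holds these genes in the order given. The members were the H3K9ac-enriched regions, termed clusters below, that overlapped this window by at least 1 bp. They were thus chosen by position, but the window itself was chosen with earlier results of these data known. They numbered 17 of the 8495 clusters of ChIP replicate 1, 14 of the 6772 of ChIP replicate 2, and 18 of the 12322 of a series-wide list that the authors deposited for the replicate set. The X as a whole held 1293, 1052 and 2007 clusters in these lists.

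The complex encodes transcription factors of the basic helix-loop-helix family. ac, sc and l(1)sc are proneural genes: they give ectodermal cells the competence to become neural precursors, as dimers with the broadly expressed protein Daughterless. ase acts later, in the neural precursors themselves. The genes are small, lack introns and lie in long stretches of non-coding DNA in which many separate enhancers drive expression in single groups of cells. H3K9ac is a mark of active promoters and enhancers.

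The chromatin came from embryos of the wild-type strain Oregon-R aged 14 to 16 h, with 2 H3K9ac ChIP samples and 2 input samples that received no antibody. Each embryo holds many cell types, so a region marked in few cells and a region weakly marked in many cannot be told apart. Nothing in the labels ties the replicates to separate collections of embryos, so their spread may be technical. Read depth is unknown, since the deposited lists give regions and a score and no counts, and no values of the inputs were used here.

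The RefSeq gene table at hand, of release 6, matched 4 of the 4 members and listed them on the X in the same order. Left of ac it lists yellow (y), a gene for cuticle pigment, and the non-coding RNA gene yar. Between ac and sc it lists 3 further long non-coding RNA genes. Pgcl lies between l(1)sc and ase, and Cyp4g1, which encodes a cytochrome P450 needed for the hydrocarbons of the cuticle, follows ase. Coordinates were not carried from one release to the other, so the clusters below are named by position and no cluster was assigned to a gene.

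H3K9ac clusters covered far more of the achaete-scute window than of the rest of the X. In replicate 1, 63.8 kb of the 110 kb window lay under a cluster, or 58.0%, against 16.5% of the rest of the X. In replicate 2, 34.2 kb or 31.1% of the window was covered, against 12.3% of the rest of the X. The window thus had 3.52 times the coverage of the rest of the X in replicate 1 and 2.53 times in replicate 2, a mean ratio of 3.02 ± 0.704 (SD, n = 2). The series-wide list covered 68.3% of the window and 23.6% of the rest of the X, a ratio of 2.90. Coverage averaged 44.6% ± 19.0 in the window and 14.4% ± 2.94 outside it (SD, n = 2 each). The difference of 30.2 ± 16.1 percentage points was larger than its spread between the replicates, and had the same direction in 2 of 2. An exact permutation test over 2 pairs cannot give a two-sided p under 0.5, so none is reported.

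**Figure D1:**
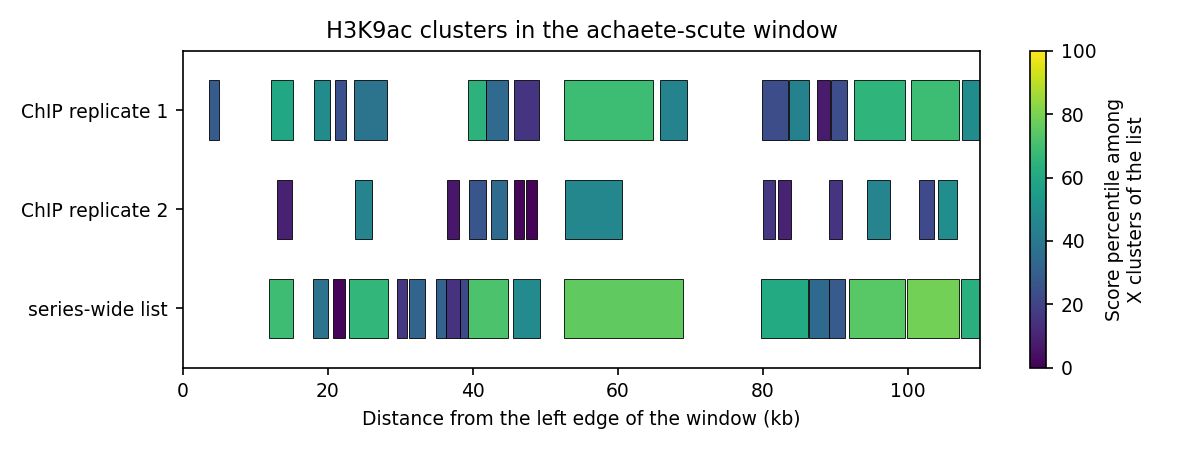
Positions of the H3K9ac clusters in each of the 3 lists along the achaete-scute window, in kb from its left edge and drawn to scale, with clusters cut at the edges of the window. Colour gives the percentile of a cluster's score among the X clusters of its list; a wide cluster near 60 kb appears in all 3 lists, the clusters near 100 kb are wide in replicate 1 and the series-wide list but not in replicate 2, and a stretch near 75 kb is empty in each.

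Among stretches of the same width, the window stood at or near the top of the X. The X was divided into 202 further tiles as wide as the window, laid out from it in both directions. In replicate 1 the window was covered more than 202 of the 202 tiles, whose median was 14.3% and whose highest value was 56.5%. In replicate 2 it exceeded 194 of 202 tiles, with a median of 11.0% and a highest value of 43.8%. In the series-wide list it exceeded 201 of 202, and the exception was X:20490184-20600184 with 71.4%. Of 877 tiles of that width on the autosome arms 2L, 2R, 3L and 3R, 865 had lower coverage than the window in replicate 1, 811 in replicate 2 and, for the series-wide list, 853. Neighbouring tiles are not replicates, and these ranks are given as a description.

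The high coverage began inside the window on its left side. The tile to the left of the window, X:139999-249999, was covered to 11.5% in replicate 1, 9.25% in replicate 2 and, for the series-wide list, 20.0%, all below the window in the same list. The tile to the right had 28.1%, 17.5% and 31.5% in these lists. The tile after that, X:470002-580002, again had 56.5%, 42.9% and 65.6%. The comparison with the nearby chromosome was therefore smaller than that with the whole X. Over the rest of the first 2 Mb of the X, coverage was 25.3% in replicate 1 and 18.8% in replicate 2, and the mean ratio of the window to it was 1.98.

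**Figure D2:**
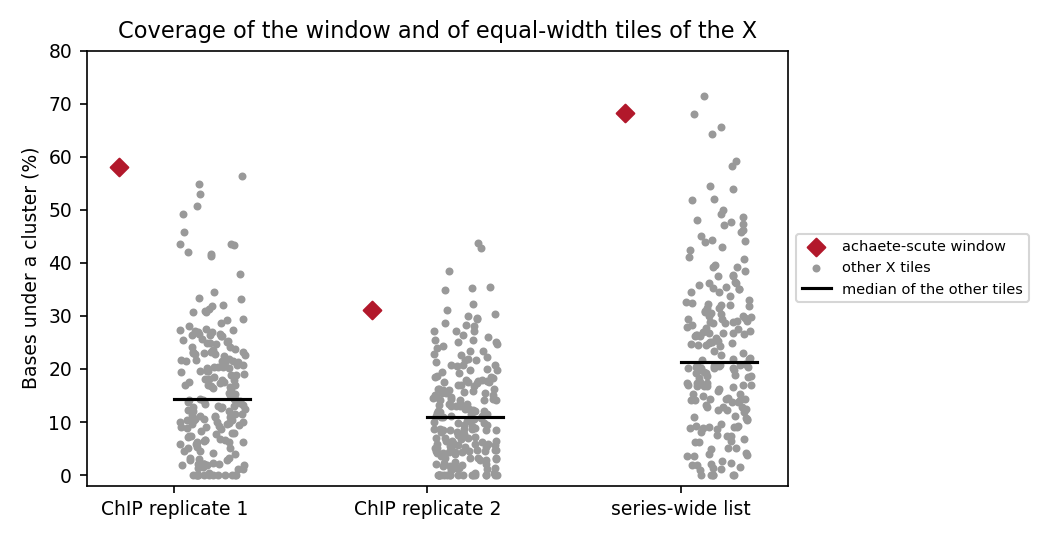
Percentage of bases under a cluster in the achaete-scute window (red diamonds) and in 202 tiles of equal width on the X (grey points, with their median as a black line), for each list. The window lies above 202, 194 and 201 tiles in replicate 1, replicate 2 and the series-wide list.

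Clusters were also denser in the window. It held 155 clusters per Mb in replicate 1, against 57.2 on the rest of the X, and 127 in replicate 2, against 46.5 on the rest of the X. The ratio was 2.70 in replicate 1 (exact 95% interval 1.57 to 4.34) and 2.74 in replicate 2 (1.49 to 4.61), a mean of 2.72 ± 0.0236 (SD, n = 2). In the series-wide list it was 1.84 (1.09 to 2.91). These intervals cover counting error alone and treat clusters as independent, although neighbouring clusters may be pieces of a single domain. Fewer but longer units appeared when clusters under 1000 bp apart were joined: 9 domains in each replicate and 6 in the list of the series. For the replicates, the mean density ratio was then 1.90.

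Width differed from the rest of the X in opposite directions in the replicates. The median window cluster was 3098 bp wide in replicate 1, against 2356 bp on the rest of the X, but 2010 bp in replicate 2, against 2278 bp on the rest of the X. In the series-wide list it was 3053 bp, against 2025 bp on the rest of the X. The mean ratio of 1.10 ± 0.306 (SD, n = 2) did not differ from equal width by more than the replicate spread. Clusters of 5 kb or more numbered 4 of 17 in replicate 1, where 8.89% of X clusters were that wide, 1 of 14 in replicate 2, with 5.8% of X clusters, and 7 of 18 in the series-wide list, with 8.62% of X clusters. Over all clusters the density ratios of the replicates were alike, and the higher coverage of replicate 1 in the window went with wider clusters. Without the clusters that score under their list's median, the density ratio was 2.48 in replicate 1 and 1.39 in replicate 2.

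The clusters of the window did not rank high by score among the clusters of the X. The score is the authors' own value for each cluster, and it was used only to rank clusters within a list. The median window cluster ranked at percentile 43.6 of X clusters in replicate 1, at 19.2 in replicate 2 and at 42.7 in the list of the series. Set against the remaining X clusters, the mean difference was -19.1 percentile points, with a value (window minus rest) of -6.67 in replicate 1 and -31.5 in replicate 2 (SD 17.5, n = 2). The mean difference was only slightly larger than this SD, and in replicate 1 alone it was small. Of the window clusters, 5 of 17 in replicate 1, 0 of 14 in replicate 2 and 8 of 18 in the series-wide list scored above the X median of their list, a limit that 50% of X clusters pass by construction. In each replicate the share that passed was higher against the median score of the whole list, all chromosomes included. In replicate 1, 10 of 17 window clusters were at or above it, where 828 of 1293 X clusters were. In replicate 2, 5 of 14 were, where 733 of 1052 X clusters were. The highest-ranked window cluster of each list stood at rank 405 of 1293, 538 of 1052 and 429 of 2007 X clusters.

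**Figure D3:**
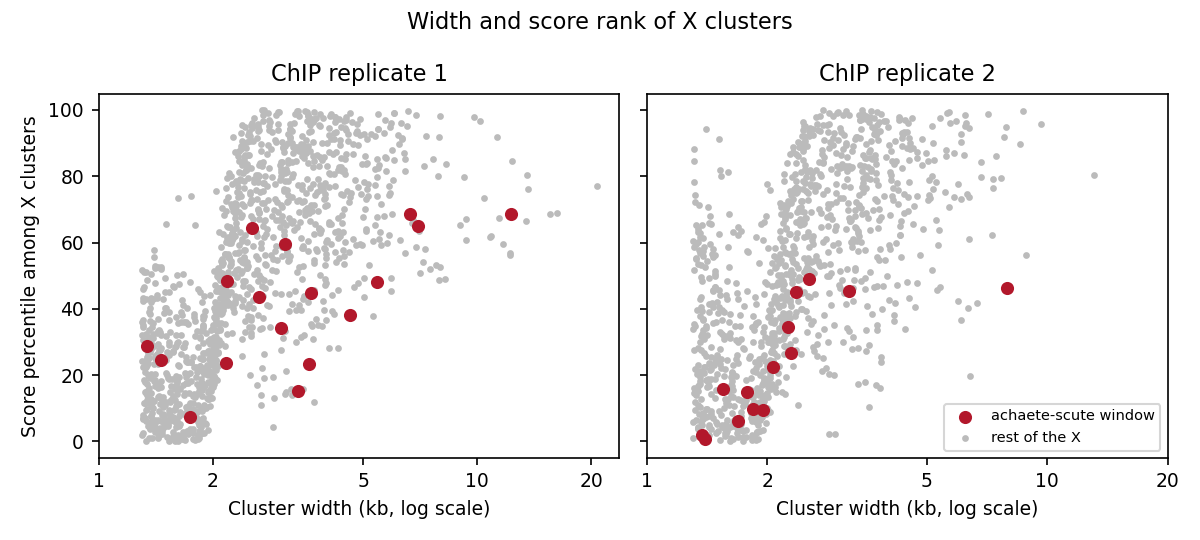
Width in kb (log scale) and score percentile of each X cluster in replicate 1 (left) and replicate 2 (right), with the 17 and 14 clusters of the achaete-scute window in red and the rest of the X in grey. In replicate 2 all 14 window clusters, and in replicate 1 12 of 17, score above fewer than 50% of X clusters of like width, and the highest of either replicate stands at percentile 68.7.

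Scores were also low among X clusters of like width, by count least clearly in replicate 1. This comparison was chosen after the values had been seen, and the counts were not tested. Each window cluster was set beside the X clusters of its list whose width was within 20% of its own. In replicate 1, 12 of 17 window clusters scored above fewer than 50% of these, which holds for 47.6% of all X clusters. In replicate 2 the count was 14 of 14, where 49.3% of all X clusters did so, and in the series-wide list 17 of 18, where 48.1% did. The median window cluster scored above 24.6% of its like-width group in replicate 1, 22.7% in replicate 2 and, for the series-wide list, 27.6%.

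The widest window cluster and the 3 best-scoring ones fell at overlapping places in the 3 lists. In the middle of the window, replicate 1 held a 12.3 kb cluster at X:302521-314793, which ranked 8 by width among the 1293 X clusters of its list and at percentile 68.6 by score. Replicate 2 held a 7.94 kb cluster at X:302681-310620, rank 6 by width of 1052 and at score percentile 46.3. The series-wide list held a 16.5 kb cluster at X:302520-319024, rank 6 by width of 2007 and at percentile 75.4. The left ends of these 3 clusters lay close together, while the right ends differed. This was the widest window cluster of each list and ranked 2 by score within the window in each.

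At the right end of the window, the best-scoring cluster of each list lay at X:350408-357042 in replicate 1, X:354177-356714 in replicate 2 and X:349926-357102 in the series-wide list. Their score percentiles were 68.7, 48.9 and 78.6. Just left of these, replicate 1 held a 6.97 kb cluster at X:342594-349565 with a percentile of 65.0, replicate 2 a 3.19 kb cluster at X:344336-347523 with 45.3, and the series-wide list a 7.63 kb cluster at X:341928-349560 with 74.1. These ranked 3 by score within the window in each list. Joined across gaps under 1000 bp, the right end formed a 25.4 kb domain of 5 clusters in replicate 1, rank 3 by width of 1069 such X domains. In the series-wide list it formed a 32.8 kb domain of 6 clusters, rank 4 of 1478. In replicate 2 the same stretch was split, and its widest joined domain there was 5.12 kb.

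Of the other high-scoring clusters, replicate 1 had X:289316-291850 at percentile 64.3 and X:262117-265214 at 59.6. The series-wide list had a cluster over each place, X:289330-294908 at percentile 71.8 and X:261874-265224 at 68.8. Replicate 2 also had clusters there, at X:289529-291823 and X:263053-265004, at percentiles 26.8 and 9.36. Ranked 4 and 5 by score within the window in replicate 2 were X:273713-276068 at percentile 45.0 and X:292471-294719 at 34.5. The place of the first of these was held in replicate 1 by X:273614-278218, a 4.61 kb cluster at percentile 38.2. The remaining window clusters of replicate 1 were between 1.34 and 5.45 kb wide, with score percentiles between 7.27 and 48.3. Those of replicate 2 were between 1.37 and 2.07 kb wide, with percentiles between 0.808 and 22.5. Those of the series-wide list, apart from the ones that overlapped neither replicate, were between 1.56 and 6.47 kb wide, with percentiles between 1.22 and 65.9.

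Coverage was uneven along the window, and the replicates lay close together at some places and far apart at others. In steps of 10 kb from the left edge, replicate 1 ranged from 0.6% to 91.9%, replicate 2 from 0% to 73.2% and the series-wide list from 0% to 98.8%. The steps at X:290000-299999 and X:300000-309999 had 75.4% ± 9.81 and 74.0% ± 1.13 (SD, n = 2), the highest means with the 2 replicates close together. The 3 steps from X:330000 to the right edge had 84.9%, 85.8% and 91.9% in replicate 1, but 42.4%, 41.1% and 46.0% in replicate 2. The step at X:310000-319999 had 84.3% in replicate 1 and 6.21% in replicate 2, the widest gap between the replicates. The step at X:320000-329999 was nearly empty, at 0.6% and 0%.

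**Figure D4:**
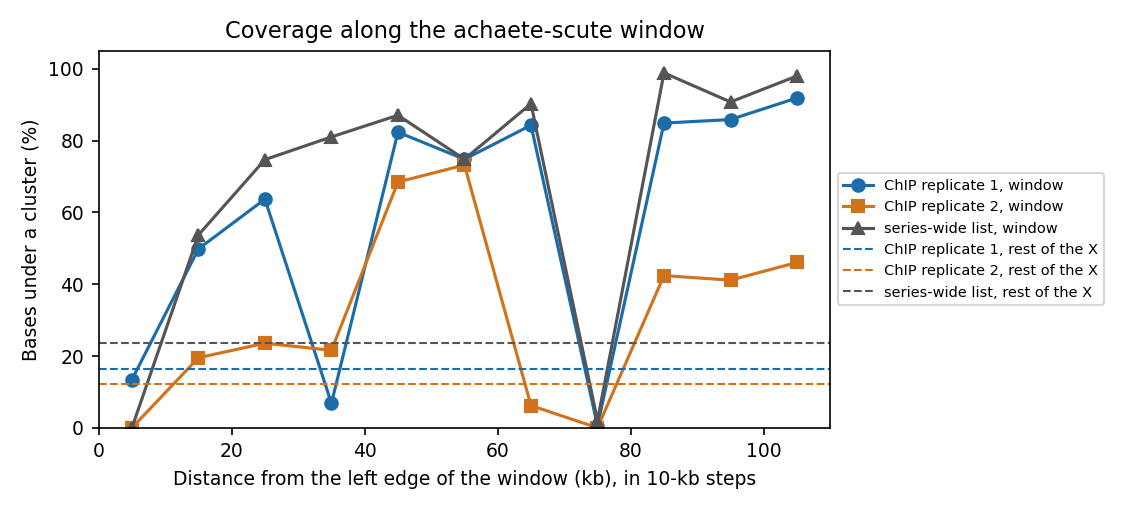
Percentage of bases under a cluster in successive 10-kb steps of the achaete-scute window, for each list (points and solid lines), with the level of the rest of the X in the same list as dashed lines. All 3 lists drop to 2.02% or less in the step centred at 75 kb and have 73.2% or more in the step centred at 55 kb.

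Cluster-free stretches lay between the marked parts. Replicate 1 had 17 such stretches within the window, of which 2 were 10 kb or longer, while 32.5% of all gaps between its X clusters were that long. Stretches that ran past an edge of the window were counted by the part inside it, whereas X gaps were counted in full. Replicate 2 had 15 stretches, of which 3 were 10 kb or longer, against 40.5% of its X gaps. The series-wide list had 18, of which 2 were, against 21.7% of its X gaps. By full length, the left-edge stretch of replicate 1, at 11.7 kb, and the right-edge stretch of replicate 2, at 12.4 kb, would also pass 10 kb. Of the stretches, 8, 5 and 12 were under 1 kb in replicate 1, replicate 2 and the series-wide list, where 17.3%, 15.7% and 26.4% of X gaps were that short. By the part inside the window, the longest stretch was 11.1 kb in replicate 1, 19.5 kb in replicate 2 and 11.9 kb in the series-wide list.

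The longest stretch that each of the 3 lists left empty was X:319514-329797, with 10.3 kb. It was bounded on its right by clusters that began at 329940 in replicate 1, 330075 in replicate 2 and, for the series-wide list, 329798. In replicate 2 the empty stretch began at 310621 and ran to 330074, and replicate 1 covered 40.8% of it. The left edge of the window was the other empty part. Replicate 2 had no cluster at X:250000-263052 and the series-wide list none at X:250000-261873, and the gaps they belong to reached out of the window to full lengths of 24.3 and 20.0 kb. Within X:250000-261873, replicate 1 was the single list with a cluster, at X:253655-254995, which is 1341 bp wide and which no cluster of the other lists overlapped.

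The stretch X:278219-289315 differed between the lists. Replicate 1 had no cluster there. Replicate 2 covered 15.2% of it with 1 cluster, X:286460-288147, the single window cluster of replicate 2 that replicate 1 did not overlap. The series-wide list covered 71.9% of the same stretch. It held 4 clusters there that overlapped neither replicate, at X:279496-280936, X:281218-283432, X:284944-286330 and X:288292-289302. These were between 1.01 and 2.21 kb wide and had score percentiles between 15.9 and 32.1.

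Over all clusters, agreement between the replicates was close by count to that on the X as a whole. Of the 17 window clusters of replicate 1, 12 overlapped a replicate 2 cluster, or 70.6% (95% Wilson interval 46.9 to 86.7%), where 68.8% of all X clusters of replicate 1 did. Of the 14 of replicate 2, 13 overlapped a replicate 1 cluster, or 92.9% (68.5 to 98.7%), where 89.9% of all X clusters of replicate 2 did. The 5 window clusters of replicate 1 with no partner in replicate 2 were X:253655-254995, X:268116-270299, X:271062-272524, X:315882-319513 and X:357449-362896, and the series-wide list overlapped the last 4. In replicate 1 the share with a partner was below that on the X when clusters that score under their list's median were left out. This cut was made in both lists. It left 10 window clusters in replicate 1 but 5 in replicate 2, against 828 and 733 over the X. Fewer possible partners thus remained in the window, which limits the share. Of the 10 remaining window clusters of replicate 1, 4 overlapped a remaining replicate 2 cluster, or 40.0%, where 70.2% of such X clusters did. Others of the 10 overlapped a replicate 2 cluster that the cut had removed, such as X:289316-291850, which overlapped X:289529-291823. In replicate 2, 4 of 5 remaining clusters overlapped a remaining replicate 1 cluster, where 81.6% of such X clusters did. Of the 18 series-wide clusters, 9 overlapped both replicates, where 42.4% of all series-wide X clusters did. A further 4 overlapped replicate 1 alone, where 18.7% did, 1 overlapped replicate 2 alone, where 4.29% did, and 4 overlapped neither, where 34.6% did. The series-wide list is not independent of the replicates.

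By bases, the replicates shared a smaller part of their joint coverage than elsewhere on the X, while more of replicate 2 lay under replicate 1. They shared 32.2 kb of the window, with 31.7 kb under replicate 1 alone, 2.05 kb under replicate 2 alone and 44.1 kb under neither. The Jaccard index, the shared bases as a share of those covered by either replicate, was 48.8% in the window and 61.9% on the rest of the X. Unequal coverage limits this index, since it cannot exceed the smaller coverage divided by the larger. Replicates 1 and 2 covered 58.0% and 31.1% of the window, which is more unequal than 16.5% and 12.3% on the rest of the X. Of the bases under replicate 2 clusters in the window, 94.0% were also under replicate 1, against 89.4% on the rest of the X. Of the bases under replicate 1 clusters, 50.4% were under replicate 2, against 66.8% on the rest of the X. With a single pair of replicates, the difference in this share has no error of its own and was not tested. The bases covered in both replicates made up 29.2% of the window and 11.0% of the rest of the X.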

How the data were processed

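H3K9ac ChIP-seq was deposited as 3 lists of significantly enriched regions, 1 for each ChIP replicate and 1 for the series, on FlyBase release 5 per the file headers. Each region carries a score that the authors deposited. Its definition is not given in the sources used here, nor are the caller, threshold and aligner, or how the replicate set was merged. Depth per sample is unknown, which leaves the precision of each region unknown. Clusters were assigned to the window by an overlap of 1 bp. Coverage was counted after merging overlaps, over an X of 22422827 bp, and clusters were cut at the edges of the window. Score percentiles refer to the X clusters of the same list. Density ratios have exact and shares have Wilson 95% intervals. The window and the results compared were chosen with earlier results of these data known. Positions named are the 5 highest-scoring and 3 widest window clusters of each list and stretches of 10 kb or more without a cluster. The clusters that 1 list alone held, those that matched a named cluster in another list, and the tiles named were chosen after their values were seen. The code was tested on simulated lists. Alternatives were single replicates, the series-wide list, clusters at or above the median score, a window moved by 10 kb, clusters wholly inside it, the first 2 Mb of the X, a 50% overlap, joined clusters and shifted tiles. Python 3.11.15, numpy 2.4.6, scipy 1.17.1 and matplotlib 3.10.9 were used.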

Additional observations from a re-analysis of the deposited data

How the results depend on the processing

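Besides single replicates, 49 alternatives were computed for 8 values. Of these alternatives, 36 left the value within its replicate SD or Wilson interval, 13 moved it and 0 reversed it. A reversal could be called only for the coverage ratio, the density ratio and the score difference. For the other values none of the alternatives could be called a reversal, so the count of 0 says nothing about them. The coverage ratio of the window to the rest of the X moved to 1.98 against the first 2 Mb of the X. The density ratio of 2.72, whose SD was small, moved to 1.84 in the series-wide list, 1.94 for the stronger clusters (those not under the list's median score; 2.48 in replicate 1 and 1.39 in replicate 2), 2.44 and 2.82 with the window moved 10 kb to the left and to the right, 2.64 for clusters wholly inside, 1.89 against the first 2 Mb and 1.90 with close clusters joined. The width ratio moved to 1.51 in the series-wide list. For the stronger clusters, the longest free stretch moved to 23.9 kb and the share of X tiles below the window to 89.1% (98.5% in replicate 1 and 79.7% in replicate 2). With both lists cut to the stronger clusters, the share of replicate 1 window clusters found in replicate 2 moved to 40.0%. This came from 10 clusters, with 5 left in replicate 2 for them to overlap. Over the X, 70.2% of the stronger replicate 1 clusters were found among those of replicate 2. The share of tiles below the window moved to 93.8% within the first 2 Mb, which held 16 tiles. The cause was not tested. From single replicates, the coverage ratio was 2.53 to 3.52, the density ratio 2.70 to 2.74, the width ratio 0.882 to 1.32, the score difference -31.5 to -6.67 percentile points, the longest free stretch 11.1 to 19.5 kb and the share of lower tiles 96.0 to 100%. With n = 2 these cannot leave the SD. A replicate 1 list cut by score to as many clusters as replicate 2 was added after the data were seen, and it moved none of its 4 values. No paired analysis was possible because the groups that share replicate numbers are ChIP and input, and no input lists were used here. The window and the rest of the X were compared within each ChIP replicate, without a p-value.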
